A study of Mus musculus with 24 samples.

Results

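Cells of the mouse line MLO-Y4 were compared between the 2g and the 1g position of a magnet platform after treatment with an irrelevant antibody. The comparison rests on 6 of the 24 arrays of the series, 3 at each position, chosen by their titles. It answers what differed between the 2g position (hypergravity) and the 1g position (normal effective gravity) when both dishes stood on the platform. At a threshold of 0.05 on the adjusted p-value no gene was called, and the intervals of nearly all genes exclude a doubling. The values below describe genes whose differences were largest, the gene groups tied to mechanical loading, and the small nucleolar RNAs, most of which measured lower at 2g.

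MLO-Y4 is an established line with features of osteocytes, the cells embedded in bone matrix. Both groups received irrelevant rabbit IgG at a 1:50 dilution for 30 min at 37 °C and 5% CO2, in 35 mm dishes, before they went onto the platform. The labels give no genetic change, agent or gravity level beyond these, and not the time on the platform. Further environments of this arm, the incubator (C) and the ug position, and a second arm with the Cx43(E2) antibody, which blocks connexin 43 hemichannels, enter the fit and are cited only where they bear on the comparison. The arrays carry title numbers 1 to 3, and the arrays of one arm and number are called a set here. No label says that the sets were separate cultures, so the p-values measure only the spread between these arrays, which may be technical. MLO-Y4 is 1 cell line. In a magnet of this kind the effective gravity changes along the field, so field strength and gravity can differ together between positions. The 2 cannot be told apart here.

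Osteocytes sense strain and fluid flow through their cytoskeleton, integrins, ion channels and cilia. They answer with early transcription factors, prostaglandin and signals that steer bone formation and resorption. Connexin 43 joins neighbouring osteocytes through gap junctions and opens hemichannels to the outside. Force on a cell also reaches the actin network, where serum response factor (SRF), with its actin-regulated partner, and YAP turn tension into transcription of contractile and matrix genes.

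The identity of the cells was checked on the 6 arrays against markers of bone and of other tissues. Of 6 osteocyte markers, 3 passed the filter on dim rows, which asked that a row reach the 40th percentile of its array on at least 3 of 24 arrays. Pdpn, an early osteocyte marker, was bright with a median log2 intensity of 12.7. Sost and Fgf23, made by mature osteocytes, were dim at 7.08 and 7.06. Dmp1, Phex and Mepe lay below the filter on all 6 arrays, so the mature osteocyte markers were largely absent. The osteoblast enzyme gene Alpl and the collagen gene Col1a1 measured 10.2 and 9.65. Runx2 and Bglap have no row with a single symbol here. Markers of other lineages in part passed the filter: 3 of 4 for endothelium, 4 of 5 for macrophages and osteoclasts, 2 of 3 for adipocytes, 2 of 3 for cartilage and 3 of 3 for muscle. Of the endothelial ones, Pecam1 and Tek reached the filter level on only 1 of the 6 arrays each. Ptprc (leukocytes), Adipoq (adipocytes), Kdr (endothelium) and Acan (cartilage) lay below the filter. Ctsk, Fabp4, Sox9 and Cd68 were bright at 11.6, 10.3, 9.63 and 9.11. The logarithm of the summed marker level overlapped between 1g and 2g for all 7 marker groups: for osteocytes it ran from 12.7 to 12.9 at 1g and from 12.8 to 12.9 at 2g.

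All values are log2 intensities of single probe sets, and a difference of 1 is a doubling. The medians of the 6 arrays lay between 6.54 and 6.60. Deviations from the group means correlated across genes at 0.246, 0.573 and 0.670 between the 1g and the 2g array of sets 1, 2 and 3. Set 3 stood apart, with correlations of -0.614 to -0.331 between its arrays and those of the other sets. Arrays of sets 1 and 2 correlated with each other at 0.275 and 0.392. Both values exceed the 0.246 within set 1, so these correlations do not separate set 1 from set 2. Genes are not independent replicates, and these correlations are descriptive. Some genes divided the sets across the arms, such as Ppef1 and Col3a1, chosen after their values were seen. At 1g Ppef1 measured 6.96, 7.23 and 5.34 in the IgG arm and 5.26, 4.84 and 6.90 in the E2 arm. Col3a1 measured 8.08, 7.87 and 9.07 against 9.21, 9.01 and 7.80. For these genes IgG set 3 read like E2 sets 1 and 2, and E2 set 3 like IgG sets 1 and 2.

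Among 14489 genes, 0 passed the adjusted threshold (0%, limma with the set as a block, lowest adjusted p = 0.962). At an unadjusted p below 0.05 stood 725 genes, 5.00% of those tested, with 208 higher (1.44%) and 517 lower (3.57%). The arrays of the 2 positions did not overlap for 1153 genes, 7.96%, of which 548 were higher (3.78%) and 605 lower (4.18%) at 2g. The 6855 rows without a single gene symbol, fitted apart, gave 0 calls (0%) and 349 rows at an unadjusted p below 0.05 (5.09%). The median change was -0.0047 and the median size of a change 0.0552. The median standard error was 0.0821, which gives a typical 95% interval of 0.171 on either side. For 99.98% of genes the interval lay within 1 log2 unit of 0, and for 98.6% within 0.5. The 3 exceptions at 1 unit were Gem, Nr4a1 and Lce1c, which are described further on. With 3 pairs, an exact paired permutation test of 1 gene cannot go below p = 0.25.

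The 3 sets did not share one pattern. The 2g minus 1g difference had the same sign in all sets for 4228 genes, 29.2% of those tested, with 1780 higher and 2448 lower. Across genes the differences of sets 1 and 2 correlated at 0.272, those of sets 2 and 3 at 0.126, and those of sets 1 and 3 at -0.218. Part of this followed the brightness of the genes. The genes were ordered by level into 5 bins of equal size. In the dimmest bin the median difference was 0.100 in set 1, 0.0694 in set 2 and -0.0546 in set 3. In the brightest bin the order was turned, with -0.0405, 0.0018 and 0.0338. After quantile normalization of the arrays the fitted median lay at 0.0027 in the dimmest and -0.0019 in the brightest bin. Whether this shift has a part in single genes was not tested beyond that normalization. The 208 higher genes were mostly dim, with 69.2% of them below the median level of all genes, and the 517 lower genes were brighter, with 37.7% below it. The size of the split moved with the scaling, with 28.7% of the genes at an unadjusted p below 0.05 higher as deposited and 40.9% after quantile normalization (303 higher and 437 lower). The excess of lower genes rested on set 1 and on the block: without set 1 the split was 240 higher and 234 lower, and without the block 135 higher and 124 lower.

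**Figure D1:**
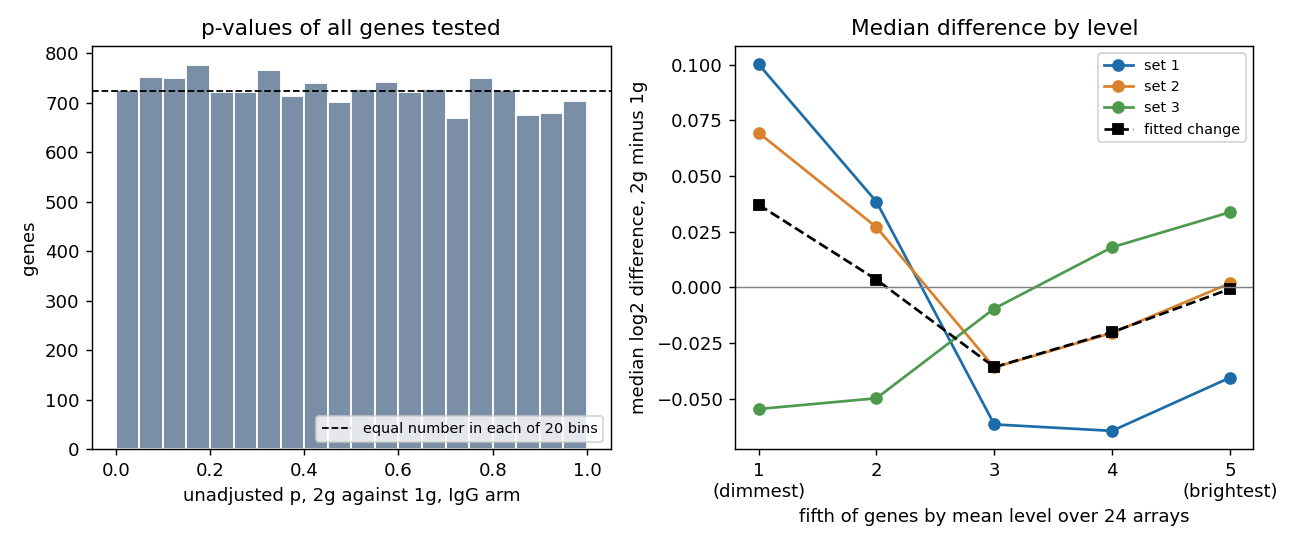
Left: histogram of the unadjusted p-values of 14489 genes for 2g against 1g, with a dashed line at equal numbers. Right: median log2 difference, 2g minus 1g, in 5 bins of genes from dimmest to brightest, for each set (coloured) and for the fitted change (black squares). The lowest bin holds 725 genes, close to the dashed line, and set 3 runs opposite to set 1 from dim to bright genes.

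The 12 largest positive changes were named among genes with an unadjusted p below 0.05 and the same sign in all sets. They ran from 0.30 to 0.52, or 1.23-fold to 1.43-fold, with unadjusted p between 0.000667 and 0.0166 and an adjusted p of 0.962 each. Of these 12 genes, 10 lay below the median level of all genes, 8.41, and 9 had arrays that did not overlap between positions. Over all genes, 3.78% were higher without overlap. The low level and the lack of overlap follow in part from the rule that chose these genes, and no test is drawn from them.

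Fbxo39 (probe set 10378078), which encodes an F-box protein, a class that selects substrates for ubiquitin ligases, measured 5.80, 5.71 and 6.20 at 1g in sets 1, 2 and 3. At 2g it measured 6.22, 6.53 and 6.52. Its 2g arrays were all above its 1g arrays, with a change of 0.52 ± 0.16 (SE). Its level was near the filter of about 6 on these arrays.

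Myo18b (10532620), an unconventional myosin gene of striated muscle, was 1 of the 2 genes of this group above that median level. It measured 9.84, 9.81 and 10.17 at 1g and 10.30, 10.21 and 10.27 at 2g. The arrays did not overlap, and the change was 0.32 ± 0.08. All 16 of its rows that passed the filter were higher at 2g, by 0.03 to 0.32. The row with the highest intensity was used, and the mean of all rows gave 0.15.

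The gene of the signalling ligand Wnt9b (10391957) measured 6.63, 6.68 and 6.87 at 1g and 7.01, 6.96 and 7.17 at 2g, a change of 0.32 ± 0.09 with no overlap. Fgf17 (10421436), which encodes a fibroblast growth factor, differed by 0.34 ± 0.11, and in set 3 both of its arrays read 6.11. Apoe (10560624), the gene of the lipid carrier apolipoprotein E, measured 7.41, 7.30 and 7.62 at 1g and 7.66, 7.88 and 7.70 at 2g. Its arrays did not overlap, and its change was 0.30 ± 0.10.

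Tlr2 (10498992), which encodes a receptor for bacterial lipoproteins, measured 8.28, 8.22 and 8.54 at 1g and 8.34, 8.59 and 9.06 at 2g. The positions overlapped, and set 1 differed little. Lag3 (10547906), which encodes an inhibitory receptor known from lymphocytes, measured 6.17, 6.04 and 6.10 at 1g and 6.31, 6.98 and 6.31 at 2g. Set 2 held most of its change of 0.43 ± 0.14, which was 0.17 without that set. Rab11fip4 (10379321), whose product binds the endosomal GTPase Rab11, measured 6.13, 6.13 and 6.12 at 1g and 6.64, 6.42 and 6.40 at 2g, with a change of 0.36 ± 0.10. The other 4 genes were Ankrd35, Dnmt3aos, Tspan10 and Aplp1, with changes of 0.30 to 0.44.

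The 12 largest negative changes ran from -0.34 to -0.42 in the IgG arm, or 1.26-fold to 1.34-fold lower at 2g, with unadjusted p between 0.00109 and 0.0321 and an adjusted p of 0.962 each. Of these, 11 lay below the median level and 8 did not overlap, while 4.18% of all genes were lower without overlap. Here too both properties follow in part from the rule, and no test is drawn from them. Both directions also passed over predicted or clone-named genes, 2 among the higher and 1 among the lower.

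Rem2 (10415074), which encodes a small GTPase of the family that restrains voltage-gated calcium channels, measured 7.11, 7.29 and 7.75 at 1g and 6.84, 6.53 and 7.54 at 2g. It was lower in every set by -0.42 ± 0.11, although set 3 lay above the others at both positions and the groups overlapped. Gem, of the same family, is described with the early genes below. It was lower at 2g in sets 1 and 3, by -0.34 and -0.08, and higher in set 2, by 2.70.

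Slc35f2 (10585381), a member of the nucleotide-sugar transporter family, measured 7.61, 7.54 and 7.28 at 1g and 7.05, 7.17 and 7.10 at 2g. The positions did not overlap, and the change was -0.37 ± 0.10. Apool (10601473), which encodes a protein of the mitochondrial inner membrane complex that shapes cristae, measured 7.08, 7.04 and 6.91 at 1g and 6.82, 6.71 and 6.36 at 2g. It did not overlap either and differed by -0.37 ± 0.12.

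Ppef1 (10607602), the gene of a calcium-binding protein phosphatase, measured 6.96, 7.23 and 5.34 at 1g and 6.44, 6.66 and 5.17 at 2g. Set 3 lay far below the others at both positions, so the groups overlapped while every set was lower at 2g. Its change of -0.42 ± 0.13 stood against 0.42 ± 0.13 in the E2 arm. The difference between the arms was -0.84 at an unadjusted p of 0.000243, which did not pass over all genes (adjusted p = 0.993, limma).

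Dnase1l3 (10417526), the gene of a secreted nuclease, measured 6.43, 6.35 and 6.75 at 1g and 6.05, 6.16 and 6.25 at 2g, with a change of -0.36 ± 0.10 and no overlap. Zbtb37, Ctla2b, Cyp2j6 and Zfp830 had changes of -0.36, -0.34, -0.34 and -0.34, all without overlap between the arrays of the 2 positions. Ctla2b and Cyp2j6 lay near the filter of about 6, with means of 5.67 and 5.97 at 2g. The remaining 3 names were Snora41, Snord15b and Snord42a, all small nucleolar RNAs, which are taken up with their class.

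**Figure D2:**
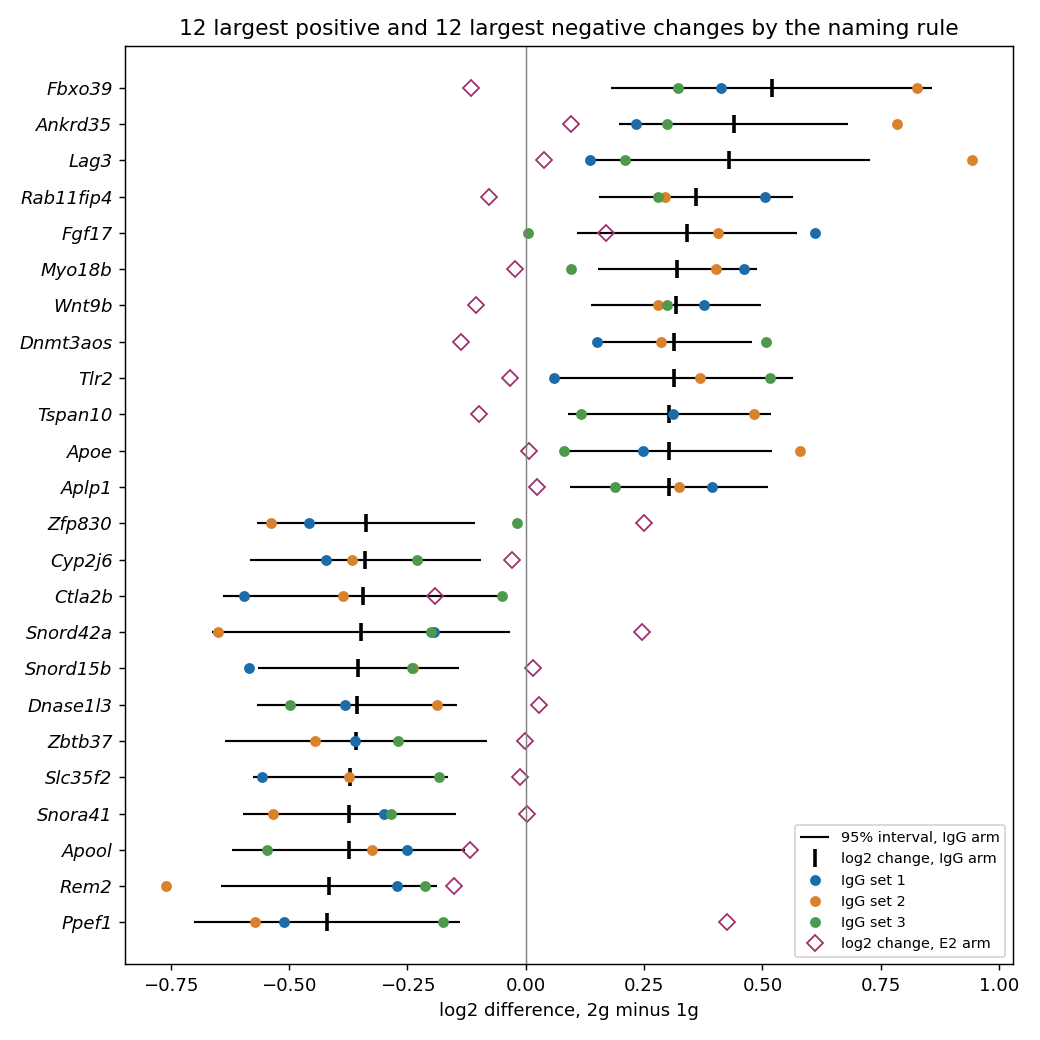
Log2 difference, 2g minus 1g, for the 24 genes named by size. Coloured points are the 3 IgG sets, the black mark and line the fitted change and its 95% interval, and the open diamond the fitted change in the E2 arm. In every gene the 3 IgG points lie on one side of 0, as the rule required, while the diamonds lie on both sides.

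The same comparison in the E2 arm used arrays that the IgG comparison does not. There 0 genes were called (limma, lowest adjusted p = 0.677) and 834 stood at an unadjusted p below 0.05, 5.76% of those tested. Arrays did not overlap for 4.80% of genes. The change had the opposite sign in the E2 arm for 7 of the 12 genes with positive changes and 6 of the 12 with negative ones. The difference between arms was called for 0 genes (limma, lowest adjusted p = 0.214, with 604 genes or 4.17% at an unadjusted p below 0.05). Since the genes were chosen on the IgG arrays, a smaller value in the other arm is what the choice alone can give, and no difference is drawn from it. The arms also hold unlike mixes of the sets that Ppef1 and Col3a1 divide. A difference between arms cannot be told apart from that mix, here or in the genes and classes below.

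Genes that respond to load in bone were given whatever their values. Gja1 (10363173), the gene of connexin 43, measured 11.56, 11.46 and 11.89 at 1g and 11.54, 11.48 and 12 at 2g. The sets differed more than the positions, and the change was 0.03 ± 0.05 with an interval of -0.07 to 0.14. Ptgs2 (10350516), the gene of the inducible cyclooxygenase of prostaglandin synthesis, measured 13.06, 12.90 and 12.88 at 1g and 13.13, 12.94 and 12.96 at 2g. Its difference of 0.06 ± 0.03 had the narrowest interval of the panel, -0.01 to 0.13.

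Of the osteocyte genes, Pdpn differed by 0.05 ± 0.04 and Sost, the gene of the bone formation inhibitor sclerostin, by 0.09 ± 0.08. Sost measured 6.82, 6.96 and 7.23 at 1g and 7.08, 7.09 and 7.11 at 2g, with set 3 opposite in sign to the others. Tnfsf11, the gene of the osteoclast-inducing ligand RANKL, differed by 0.15 ± 0.17, and Tnfrsf11b, the gene of its decoy receptor osteoprotegerin, by 0.10 ± 0.10. Both had intervals that reached from below 0 to 0.50 and 0.30. Dmp1 and Phex were not tested, since they lay below the filter. Piezo1 (10582376), a mechanically gated channel, measured 12.19, 12.15 and 11.91 at 1g and 12.15, 12.26 and 12.06 at 2g, with a change of 0.08 ± 0.06. Its 3 rows were all higher, by 0.04 to 0.11.

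The whole lists around these genes had no called member. Of 9 osteocyte markers tested, 5 were higher and 4 lower (median 0.013), against 47.6% higher over all genes. All 5 osteoblast markers tested were higher (median 0.110), with 5 more below the filter. Of 10 genes of osteoclast control 7 were higher (median 0.058), of 9 mechanosensitive channel and cilium genes 6 (median 0.028), and of 7 connexin and pannexin genes 3 (median -0.021). In each of these 5 lists 0 members stood at an unadjusted p below 0.05.

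The list with the most negative median was that of actin, SRF and YAP genes, which covers contraction and its transcription factors. Of 21 members, 18 were lower and 3 higher at 2g, with a median change of -0.055 against -0.0047 over all genes. The median was negative in each set, at -0.058, -0.104 and -0.023. Unadjusted p-values below 0.05 were found for 3 lower members and 0 higher, against 3.57% and 1.44% of all genes, and none was called (adjusted p = 0.962). In the E2 arm the median was -0.033 with 16 of 21 lower.

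The promoters of the SRF gene itself and of Myl9 are shown because both hold the CArG box, the DNA element that SRF binds, and both genes were lower at 2g. Each window is the 250 bases before the RefSeq start on build GRCm38.p6, read 5′ to 3′ along the gene, with CArG boxes in capitals. The first lies at chr2:156775214-156775463 on the plus strand and the second at chr17:46556163-46556412 on the minus strand.
Myl9: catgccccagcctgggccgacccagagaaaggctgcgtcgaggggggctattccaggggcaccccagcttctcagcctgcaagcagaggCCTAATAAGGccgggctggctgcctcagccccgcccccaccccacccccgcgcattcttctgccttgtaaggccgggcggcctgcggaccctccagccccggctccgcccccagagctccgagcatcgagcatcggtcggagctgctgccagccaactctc
Srf: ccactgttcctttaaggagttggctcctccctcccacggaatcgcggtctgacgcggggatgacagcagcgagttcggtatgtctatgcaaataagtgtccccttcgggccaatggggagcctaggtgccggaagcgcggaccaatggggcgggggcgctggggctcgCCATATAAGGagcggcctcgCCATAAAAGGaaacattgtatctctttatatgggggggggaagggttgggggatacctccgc
The Myl9 window holds 1 CArG box that begins 161 bases before the start, and the Srf window holds 2 that begin 82 and 62 bases before it. Of the 21 members, 17 had a window in the RefSeq table, and 4 of these (Cnn2, Myl9, Srf and Vcl) held a CArG box on either strand, against 1.47% of all 32851 windows. The list holds known SRF targets, so more boxes among its members can follow from that choice alone. A member counted if any of its windows held a box, while the share over all windows counts single windows. No result is drawn from the 2 shares. A match is a sequence description and says nothing of binding.

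Myl9 (10477920), the gene of a regulatory light chain of smooth muscle and non-muscle myosin, measured 8.12, 8.30 and 8.23 at 1g and 7.86, 7.99 and 7.83 at 2g. All 2g arrays lay below all 1g arrays, and the change was -0.33 ± 0.08, or 1.26-fold lower, at an unadjusted p of 0.00044 (adjusted p = 0.962, limma). In E2-treated cells it differed by 0.03 ± 0.08. The difference between arms had an unadjusted p of 0.00408 and an adjusted p of 0.993.

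Tagln (10593123), the gene of the actin-binding protein transgelin, measured 7.69, 8.01 and 7.92 at 1g and 7.59, 7.72 and 7.52 at 2g. It overlapped in 1 array and differed by -0.26 ± 0.10. Srf (10451363) measured 10.91, 11.02 and 11.06 at 1g and 10.85, 10.86 and 10.81 at 2g. Its arrays did not overlap, and the change was -0.16 ± 0.07. For both genes the difference was smallest in set 1 and largest in set 3.

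Ankrd1 (10467191), a YAP target, measured 9.49, 9.61 and 8.85 at 1g and 9.04, 9.38 and 8.76 at 2g, with a change of -0.26 ± 0.13. Its difference was largest in set 1, the reverse of Myl9. The YAP targets Ccn1 and Ccn2, which encode secreted matricellular proteins, differed by -0.08 ± 0.11 and -0.05 ± 0.08. Actb (10535381), the gene of cytoplasmic beta-actin, chosen after its values were seen, differed by 0.04 ± 0.02 in the other direction. It measured 13.72, 13.73 and 13.70 at 1g and 13.76, 13.73 and 13.78 at 2g. Under the alternatives to the main fit its change ran from 2.2e-15 to 0.058, so in the lowest case no difference was left.

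**Figure D3:**
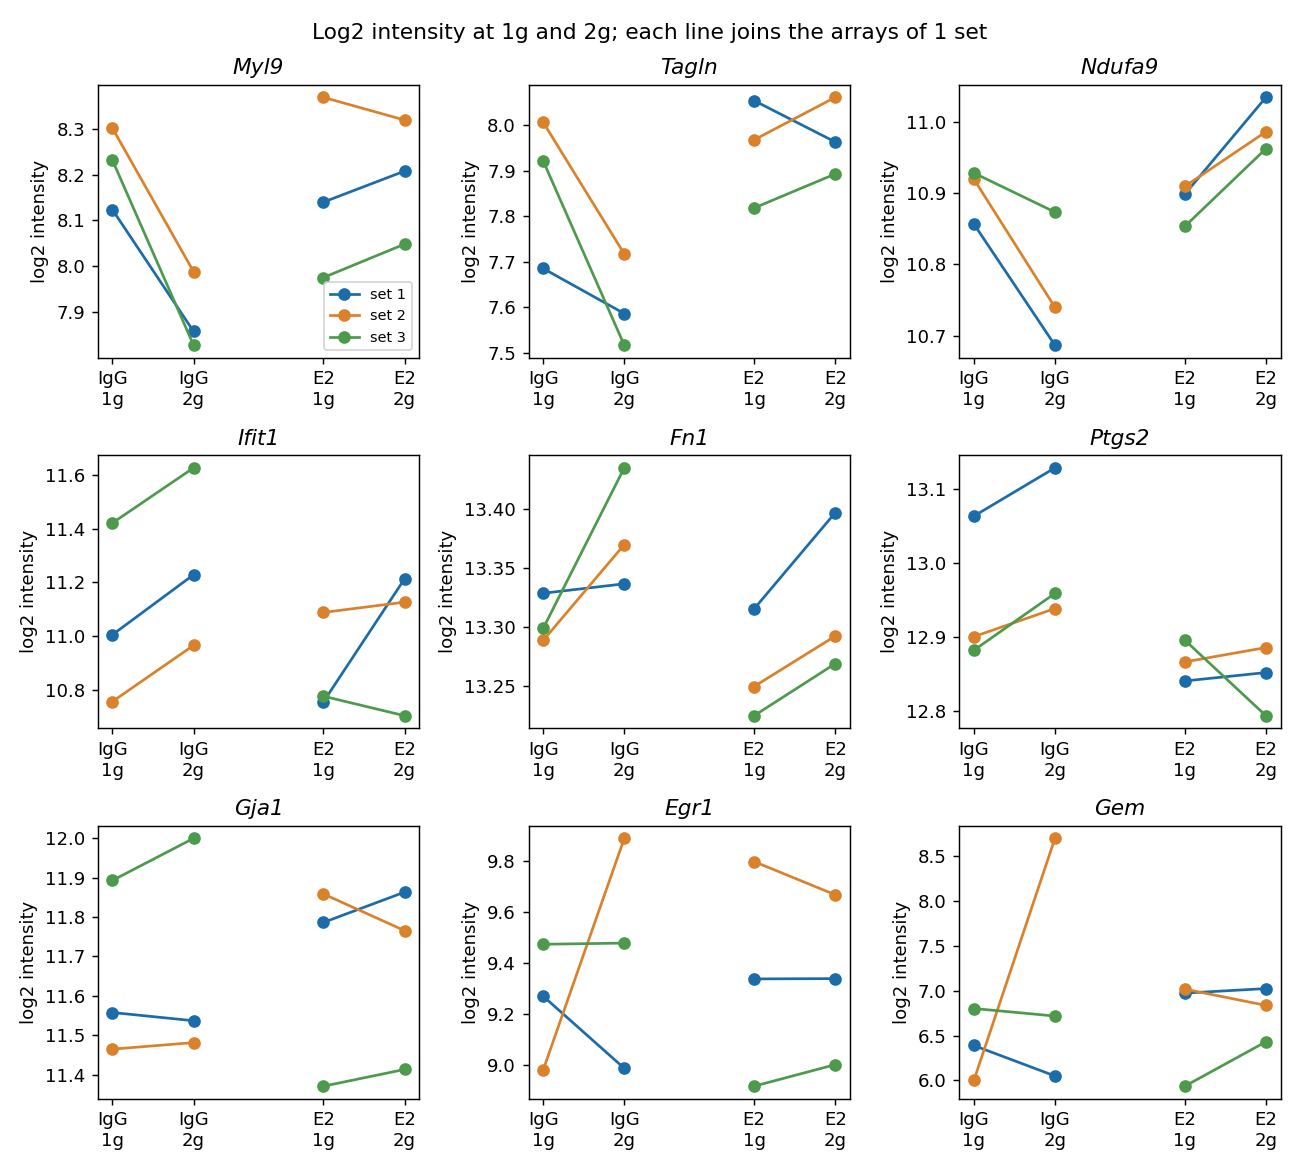
Log2 intensity of 9 genes at 1g and 2g in the IgG arm (left pair) and the E2 arm (right pair). Each line joins the 2 arrays of one set, and set colours repeat between arms without meaning a shared culture. Myl9 is lower at 2g on all 3 IgG lines, with values of at least 8.12 at 1g and at most 7.99 at 2g. Egr1 and Gem differ most in IgG set 2, by 0.91 and 2.70.

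Genes of oxidative phosphorylation, which encode subunits of the mitochondrial respiratory chain, were mostly lower in the measured values, with none called. Of 24 tested, 21 were lower and 3 higher, with a median of -0.048 and set medians of -0.055, -0.039 and -0.037. Members at an unadjusted p below 0.05 were 4 lower and 0 higher, against 3.57% and 1.44% of all genes. All 4 carry Nduf symbols, most of which name complex I subunits, as do 10 of the 24 members, all 10 of them lower. The E2 arm had 13 of 24 lower, with a median of -0.006.

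Ndufa9 (10548057), which encodes a complex I subunit, measured 10.86, 10.92 and 10.93 at 1g and 10.69, 10.74 and 10.87 at 2g, a change of -0.14 ± 0.05. Under the E2 antibody it differed by 0.11 ± 0.05, and the difference between arms had an unadjusted p of 0.00127 and an adjusted p of 0.993. Ndufa1 (10604100) measured 8.47, 8.48 and 8.22 at 1g and 8.20, 8.25 and 7.99 at 2g, with almost the same difference in each set and a change of -0.24 ± 0.10. Ndufv1 and Ndufs3, both part of the electron input arm of complex I, differed by -0.11 ± 0.04 and -0.11 ± 0.05. None was called (adjusted p = 0.962).

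Genes induced by interferon, the antiviral programme, measured higher. Of 17 tested, 15 were higher and 2 lower, with a median of 0.099 and set medians of 0.042, 0.110 and 0.126. Below an unadjusted p of 0.05 stood 2 higher members, Ifit1 and Rsad2, and 0 lower, against 1.44% and 3.57% of all genes. No member was free of overlap between the positions, against 3.78% of all genes higher without overlap. The E2 arm had 11 of 17 higher, with a median of 0.046.

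The promoters of these 2 genes are shown for the core of interferon-stimulated response elements, searched on both strands as GAAA, any 2 bases and GAAA again. Matches are in capitals and start with TTTC here, since the core lies on the opposite strand. The windows are the 250 bases before the RefSeq start on GRCm38.p6, at chr19:34640639-34640888 on the plus strand and chr12:26456453-26456702 on the minus strand.
Ifit1: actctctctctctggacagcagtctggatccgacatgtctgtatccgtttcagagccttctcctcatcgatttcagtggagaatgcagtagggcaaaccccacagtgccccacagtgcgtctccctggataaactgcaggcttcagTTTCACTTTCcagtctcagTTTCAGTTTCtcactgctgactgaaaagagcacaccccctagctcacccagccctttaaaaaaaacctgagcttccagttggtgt
Rsad2: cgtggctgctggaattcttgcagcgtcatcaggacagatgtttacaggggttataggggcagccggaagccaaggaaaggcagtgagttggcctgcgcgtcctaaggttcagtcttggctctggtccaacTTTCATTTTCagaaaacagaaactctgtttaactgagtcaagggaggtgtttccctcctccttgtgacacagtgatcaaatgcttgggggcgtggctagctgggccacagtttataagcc
Ifit1 holds 2 matches that begin 104 and 85 bases before the start, and Rsad2 holds 1 at 120 bases. Of the 17 members, 14 had a window and 7 of these held a match, against 2.98% of all windows. The list holds known interferon-induced genes, so more matches can follow from that choice alone. Members were again counted over any window, and no result is drawn from the 2 shares.

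Ifit1 (10462623), which encodes a protein that binds foreign RNA, measured 11.005, 10.76 and 11.42 at 1g and 11.23, 10.96 and 11.63 at 2g. The sets lay at different levels, so the groups overlapped, while each set was higher at 2g by about the same amount, 0.21 ± 0.09. Rsad2 (10399710), which encodes the antiviral enzyme viperin, measured 10.73, 10.25 and 10.80 at 1g and 10.83, 10.63 and 11.07 at 2g, a change of 0.25 ± 0.11. Ddx58, the gene of the RNA sensor RIG-I, and Usp18, a brake on interferon signalling, each differed by 0.12 ± 0.07.

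Extracellular matrix genes, which encode collagens, adhesive glycoproteins and their processing enzymes, were higher in 26 of 31 cases, with a median of 0.056. The set medians were -0.017, 0.074 and 0.096, so set 1 did not share the direction. The E2 arm had 15 of 31 higher, with a median of -0.001. At an unadjusted p below 0.05 stood 3 higher members and 0 lower, against 1.44% and 3.57% of all genes, and none was called.

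Fn1 (10355403), the gene of fibronectin, measured 13.33, 13.29 and 13.30 at 1g and 13.34, 13.37 and 13.43 at 2g. Its 2g arrays lay just above its 1g arrays, with a change of 0.08 ± 0.03, or 1.05-fold. Thbs2 (10447951), the gene of the matricellular protein thrombospondin-2, measured 11.84, 11.75 and 12.22 at 1g and 11.86, 11.96 and 12.39 at 2g, a change of 0.13 ± 0.05. Col3a1 (10346015), the gene of type III collagen, measured 8.08, 7.87 and 9.07 at 1g and 8.18, 8.21 and 9.16 at 2g, and differed by 0.18 ± 0.08. Its set 3 was brighter at both positions. Col1a1, the gene of the main collagen of bone, differed by 0.13 ± 0.07, and Plod2, whose product hydroxylates collagen for cross-linking, by 0.14 ± 0.07.

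Of 22 genes of the unfolded protein response, by which cells match protein folding in the endoplasmic reticulum to its load, 18 were higher and 4 lower, with a median of 0.052. The set medians were 0.0055, 0.014 and 0.099, so set 3 differed most. The E2 arm had 16 higher, with a median of 0.030. Canx (10385599), the gene of the chaperone calnexin, measured 12.70, 12.64 and 12.65 at 1g and 12.80, 12.68 and 12.75 at 2g and differed by 0.08 ± 0.04. Sel1l, which serves the disposal of misfolded proteins, differed by 0.11 ± 0.05. Ero1a, an oxidase that helps form disulfide bonds, differed by 0.11 ± 0.05, and Pdia4, a disulfide isomerase gene, by 0.08 ± 0.05. The 2 rows of Pdia4 disagreed in sign, at 0.08 and -0.06.

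Of 14 iron handling genes tested, 10 were higher, with a median of 0.038 and set medians of -0.015, 0.042 and 0.094. Tfr2 (10526630), a transferrin receptor gene, was dim, measured 5.91, 5.89 and 5.999 at 1g and 6.02, 6.19 and 6.14 at 2g, and did not overlap. Slc39a14, the gene of a metal importer, differed by 0.14 ± 0.06 and Slc25a37, that of the mitochondrial iron importer, by 0.15 ± 0.08. Fth1 (10461402), which encodes the ferritin heavy chain that stores iron, differed by 0.04 ± 0.03.

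Immediate early genes, the transcription factors that cells induce first after a stimulus such as stretch, differed most between sets, with the widest spread of set medians among the 36 lists (SD 0.172). Of 27 tested, 23 had a positive fitted change, with a median of 0.082. In set 1, 24 of the 27 were lower at 2g, with a median of -0.130. In set 2, 23 were higher, with a median of 0.187, and in set 3, 24 were higher, with a median of 0.142. No member kept its sign in all 3 sets, and the smallest unadjusted p was 0.0585. The E2 arm had 8 higher, with a median of -0.017.

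Egr1 (10454782), a zinc finger factor, measured 9.27, 8.98 and 9.47 at 1g and 8.99, 9.89 and 9.48 at 2g. Its change of 0.21 ± 0.24 rested on set 2, which differed by 0.91, and without that set it was -0.14. At ug in the IgG arm Egr1 measured 9.71, 9.11 and 10.62, so set 2 read lowest at ug and highest at 2g. Fos (10397346), a partner in the AP-1 factor, measured 7.22, 6.93 and 7.12 at 1g and 6.82, 7.50 and 7.20 at 2g. It differed by 0.08 ± 0.29, and by -0.16 without set 2.

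Gem (10503334), the gene of a GTPase that restrains calcium channels, chosen after its values were seen, measured 6.39, 5.999 and 6.80 at 1g. At 2g it measured 6.05, 8.69 and 6.72, so a single array of the comparison lay far above the others. Its fitted change of 0.76 ± 0.66 was the largest of all genes and had an interval of -0.62 to 2.14. Without set 2 it was -0.21. At ug in the IgG arm, Gem measured 8.30, 5.97 and 10.50 in sets 1, 2 and 3. In set 2 the 2g array was thus above the ug array, while in sets 1 and 3 the ug array was above. The E2 arrays at ug read 9.01, 10.48 and 9.25. Whether the 2g and ug arrays of IgG set 2 carry the right titles was not tested. Nr4a1 (10427035), a nuclear receptor gene also chosen after its values were seen, measured 9.86, 9.16 and 9.02 at 1g and 9.55, 10.23 and 9.38 at 2g, with a change of 0.37 ± 0.37 that was 0.02 without set 2. Lce1c (10493889), a cornified envelope gene, likewise chosen, differed by -1.06 in set 3 and by -0.26 and -0.12 in sets 1 and 2. Its fitted change was -0.48 ± 0.26, and -0.19 without set 3.

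Nr4a2 (10482772), a related nuclear receptor gene, had the smallest p of the list. It measured 11.35, 10.90 and 11.01 at 1g and 11.27, 11.35 and 11.36 at 2g, with a change of 0.24 ± 0.12. Klf4, Klf2 and Klf6, genes of Krüppel-like transcription factors, differed by 0.15 ± 0.10, 0.11 ± 0.08 and 0.11 ± 0.10. Klf6 differed by -0.05 without set 3.

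Over the 36 lists the medians ran from -0.055 for actin, SRF and YAP genes to 0.110 for osteoblast markers, and 0 lists had a called member. Of 19 cholesterol and fatty acid synthesis genes 17 were higher, yet the set medians were -0.134, 0.084 and 0.107, the same division between set 1 and the others as in the early genes. This list is bright, with a median level of 10.7. The brightest of the 5 bins had set medians of the same signs, at -0.041, 0.002 and 0.034. The part of the level in such divisions was not tested. The 14 cytosolic ribosomal protein genes had a median of -0.003, the 24 cell cycle genes -0.020 and the 15 heat shock genes 0.005. Some genes stand in more than 1 list, 13 in all. Lists are therefore not independent of each other.

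**Figure D4:**
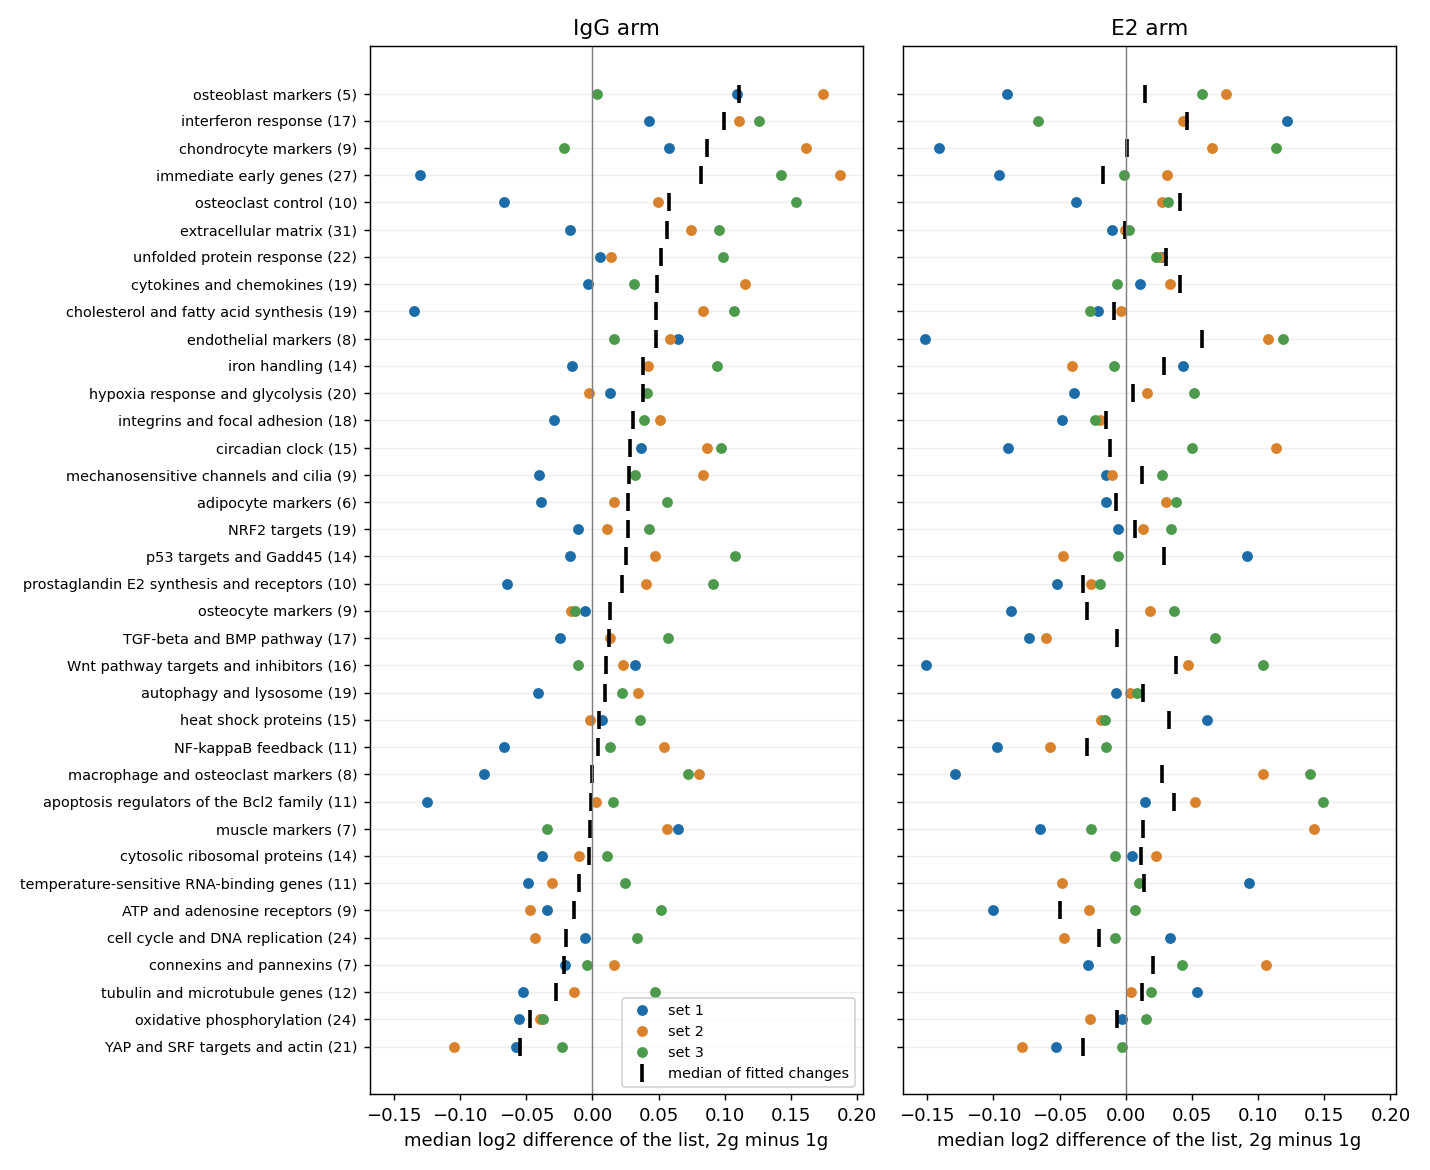
Median log2 difference, 2g minus 1g, of the 36 gene lists, with the number of genes tested in brackets, ordered by the IgG median. Points are the 3 sets of each arm and the black mark is the median of the fitted changes. In the IgG arm the actin, SRF and YAP genes and the oxidative phosphorylation genes lie below 0 in every set and the interferon genes above 0, while the early genes are split by set.

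Small nucleolar RNAs (snoRNAs) are short RNAs, mostly cut from the introns of host genes, that guide the methylation and pseudouridylation of ribosomal RNA. The class was chosen after its values were seen, by its RefSeq biotype, and carries no test. Of 47 snoRNA genes tested, 44 were lower at 2g, with a median of -0.20 against -0.0047 over all genes. At an unadjusted p below 0.05 stood 21 lower members, 44.7% of the class, against 3.57% of all genes, and 0 higher. None was called (lowest adjusted p = 0.962, limma). Without the block 9 members were lower at that level, and after quantile normalization 14. Over all genes 124 and 437 were lower under the same 2 settings.

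The class differed by set. Its median difference was -0.36 in set 1, -0.18 in set 2 and -0.04 in set 3, with 45, 44 and 31 of 47 members lower. In all 3 sets 29 members were lower, and for 4 members the positions did not overlap, against 4.18% of all genes lower without overlap. Without set 1 the median was -0.12 and 3 members were lower at an unadjusted p below 0.05. Without set 2 it was -0.20 with 11 such members, and without set 3 -0.26 with 22. Over all genes 234, 173 and 577 were lower at that level in the same fits. The H/ACA type (Snora symbols), which guides pseudouridylation, was lower in 20 of 20 cases, and the C/D type (Snord symbols), which guides methylation, in 23 of 25.

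Snora16a (10508719) measured 10.82, 10.94 and 10.59 at 1g and 10.56, 10.55 and 10.45 at 2g. Its arrays did not overlap, and it differed by -0.26 ± 0.06 at an unadjusted p of 0.000432. In E2-treated cells it differed by 0.12 ± 0.06, with an unadjusted p of 0.00034 for the difference between arms (adjusted p = 0.993). Snora20 (10441813) had the largest change of the class, -0.40 ± 0.15. It measured 6.77, 6.69 and 6.20 at 1g and 6.11, 6.05 and 6.31 at 2g, with set 3 in the other direction.

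Snora41 (10346876) measured 6.53, 6.68 and 6.31 at 1g and 6.23, 6.15 and 6.02 at 2g, a change of -0.37 ± 0.11 with no overlap. Snord15b (10565811), a brighter C/D type RNA, measured 9.59, 9.64 and 9.27 at 1g and 9.01, 9.40 and 9.03 at 2g and differed by -0.35 ± 0.10. Its set 2 array at 2g lay above its set 3 array at 1g. Snord42a differed by -0.35 ± 0.15, and Snord49b (10376885), which was bright at 12.22, 12.27 and 11.998 at 1g, by -0.16 ± 0.05.

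The level of the class on each array is given by its median over the 47 genes. At 1g it was 9.20, 9.06 and 8.74 in sets 1, 2 and 3, and at 2g 8.67, 8.95 and 8.69. In the incubator the same sets read 8.73, 8.87 and 8.96, and at ug 9.12, 8.96 and 8.95. The 1g arrays of sets 1 and 2 were therefore above their own incubator arrays, and that of set 3 was below. Against the incubator the median change of the class was 0.08 at 1g, with 11 of 47 lower, and -0.07 at 2g, with 37 lower. These changes share arrays with each other and with the comparison of 2g and 1g.

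In the E2 arm, on arrays of its own, the median change of the class at 2g against 1g was 0.03, with 17 of 47 lower. Its array medians were 9.27, 9.02 and 8.83 at 1g and 9.06, 9.19 and 8.71 at 2g. The change was more negative in the IgG arm for 46 of 47 members. The difference between arms stood at an unadjusted p below 0.05 for 9 of them, and none passed over all genes (lowest adjusted p = 0.993, limma). Many snoRNAs share a host gene and all share the same 12 arrays, so their number is not a number of replicates.

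**Figure D5:**
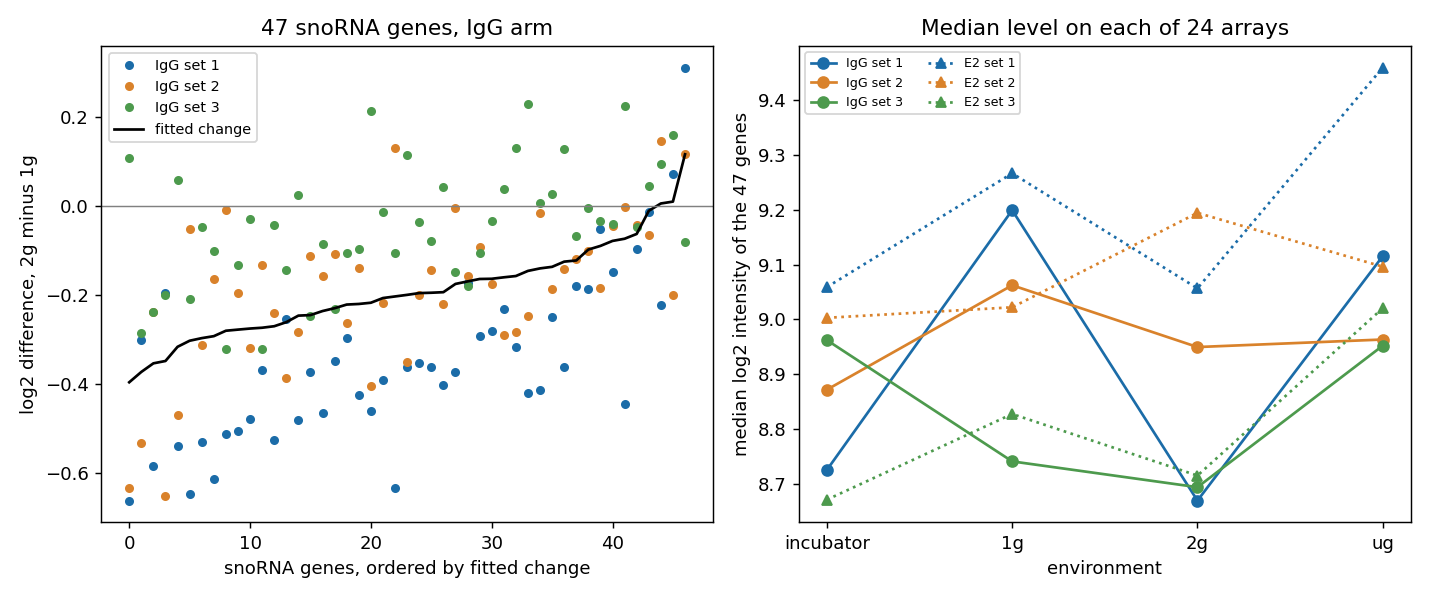
Left: log2 difference, 2g minus 1g, of 47 snoRNA genes ordered by fitted change (line), with the 3 IgG sets as points. Right: median log2 intensity of the 47 genes on each of 24 arrays, by environment, where lines join the arrays of one set and the environments have no order. Set 1 lies lowest on the left, and on the right its IgG line reads 9.20 at 1g and 8.67 at 2g, while IgG set 3 reads 8.74 and 8.69.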

How the data were processed

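The deposited values are one log2 intensity per probe set and array from an Affymetrix mouse gene array hybridised with biotinylated cRNA. That the deposited values are log2 was judged from their range, 2.36 to 14.1 over 24 arrays. MAS5 is named, per the submitters' processing notes, and neither its role nor its version is. How the arrays were scaled to one another is not given in the sources used here. Per the labels' protocols RNA was extracted with Trizol. No column without a sample was used.

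Of 35556 rows, 21789 had 1 gene symbol in the platform's probe table, 1621 several and 12146 none; 21698 matched RefSeq by gene number. A row was kept if 3 or more of the 24 arrays had it at their 40th percentile or above (22641 rows, of which 15786 had 1 symbol). Each gene was represented by its brightest kept row, which gave 14489 genes. The 6855 kept rows without a single symbol were fitted apart.

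limma 3.58.1 in R 4.3.3 fitted all 24 arrays with the set (arm and title number, 6 levels) as a fixed block and the environment within each arm, with a variance trend, two-sided, Benjamini-Hochberg adjustment over all genes and a call at an adjusted p below 0.05. The residual degrees of freedom were 12 and the prior added 8.29. The numbers were taken to pair arrays within an arm because all 36 same-number pairs had correlated deviations from the group means (0.195 to 0.812, median 0.511), while 72 different-number pairs ran from -0.675 to 0.548 (median -0.452). This pairing comes from the values and no label states it. Deviations from a group mean of 3 arrays cancel out, which lowers the correlations of different numbers. Number 3 stood apart, but IgG arrays of numbers 1 and 2 correlated at 0.275 and 0.392 between 1g and 2g. Within number 1 the value was 0.246, so the contrast cannot show that number 1 pairs with 1 rather than with 2.

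The members, the gene lists (textbook genes) and the naming rule were chosen with earlier results of these data known. The rule named the 12 largest changes in each direction among genes at an unadjusted p below 0.05 with one sign in 3 sets (175 higher and 478 lower qualified), from each list described up to 4 members by smallest p, and a fixed panel of load-related genes. Promoter windows are RefSeq's. Alternatives were the block removed or random, fewer arrays in the fit, quantile normalization, other filters, a mean over each gene's rows, a fit without the variance trend and leaving out each set. The code was tested on simulated data. The number of arrays limits the precision.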

Additional observations from a re-analysis of the deposited data

How the results depend on the processing

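No gene was called at 2g against 1g in the IgG arm, or for the difference between arms, under any alternative run, which included leaving out each set (limma, lowest adjusted p 0.285 to 1.00 for the former and 0.0664 to 1.00 for the latter). Without the replicate block 259 genes stood at an unadjusted p below 0.05 (135 higher and 124 lower), against 725 with it, and the lowest adjusted p was 1.00. With only the 12 IgG arrays in the fit there were 1115, and with only the 6 arrays compared 1045. Leaving out a set gave 242 to 931: 474 without IgG set 1 (240 higher and 234 lower), 242 without set 2 and 931 without set 3, where the lowest adjusted p was 0.285. In the E2 arm, with only its 6 arrays in the fit, 4 genes were called in place of 0 (4932438A13Rik, Atp5md, Gm10785 and Hspe1, chosen after their values were seen). That fit estimates the spread from those arrays alone. Among the named genes 5 changes turned sign, each when 1 set was left out. Over the 3 sets left out in turn, Egr1 ran from -0.14 (without IgG set 2) to 0.46, Fos from -0.16 (without set 2) to 0.32 and Gem from -0.21 (without set 2) to 1.31. Gja1 ran from -0.0021 (without set 3) to 0.062 and Klf6 from -0.047 (without set 3) to 0.27. Of the list medians 413 of 432 values under alternatives moved by less than the spread between sets. The medians of the actin, SRF and YAP list (-0.073 to -0.036), the oxidative phosphorylation list (-0.049 to -0.037) and the interferon list (0.069 to 0.137) kept their sign under all 12 alternatives. Other lists did so as well, among them the matrix list, the unfolded protein response and the cytosolic ribosomal proteins, whose median was -0.003. A kept sign is therefore not particular to the lists named. The snoRNA median, with alternatives added after the data were seen, lay between -0.26 and -0.12. The set as a random block had a consensus correlation of 0.355. The spread of 3 sets limits what can be seen: a typical gene would have to differ by more than 0.171 for its own interval to exclude 0.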

Other observations

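Other classes of RNA by RefSeq biotype were described after the snoRNAs. The 104 microRNA genes tested, most of them dim with a median level of 6.73, had a median change of 0.065 at 2g, with 75 higher and 29 lower. Their set medians were 0.143, 0.112 and -0.014. At an unadjusted p below 0.05 stood 8 higher and 3 lower, against 1.44% and 3.57% of all genes, and none was called. Dim genes in general were more often higher, with 65.4% of genes higher in the dimmest of 5 bins by level and 51.2% in the next. The part of the level in the microRNA values was not tested. The 414 long non-coding RNA genes had a median of 0.013, with 15 higher and 17 lower at that level. The 13772 protein-coding genes had a median of -0.0055.

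Terc (10500345), the RNA template of telomerase, which shares the H/ACA fold with one class of snoRNA, was chosen after its values were seen. It measured 10.1, 10.2 and 9.80 at 1g and 9.87, 9.81 and 9.63 at 2g. Each set was lower at 2g, by -0.19, -0.35 and -0.18, with a change of -0.24 ± 0.07 (SE) and an adjusted p of 0.962 (limma). In the E2 arm the change was -0.000085 ± 0.072, and the difference between arms did not pass (adjusted p = 0.993).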
